A study of Mus musculus with 8 samples.

Results

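The 9 complement genes described here were measured in the whole retina of 2-week-old Lpcat1 WT and Lpcat1 KO mice. They were C1qa, C1qb, C1qc, C1ra and C4b of the classical pathway, C3 and Cfb of the central step and the alternative pathway, and the inhibitors Serping1 and Cfi. The members were chosen by symbol, as every probe that is not a control spot and whose accession maps to one of these 9 genes, which gave 12 of the 55681 probes and 9 of the 20018 genes with a symbol on the array. Total RNA from 4 Lpcat1 WT and 4 Lpcat1 KO samples was hybridised in 1 colour, with 1 array per sample. Both genotypes are labelled C57BL/6, and no driver that limits the knockout to a cell type is named. The line was made on C57BL6/N and crossed with C57BL6/J so that no mouse used carried the retinal rd8 mutation of Crb1 on both alleles, which leaves a background mixed from both substrains. The sources used here do not say whether a sample is 1 animal, so the p-values measure the spread between these samples, which may be technical.

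Complement is a cascade of plasma and tissue proteins that tags surfaces for removal by phagocytes. In the classical pathway C1q, a recognition molecule built from the products of C1qa, C1qb and C1qc, binds its target and switches on the proteases C1r and C1s, which cleave C4 and C2 into an enzyme that cleaves C3. The alternative pathway starts at C3 itself and is amplified by factor B, and host cells hold both routes in check with inhibitors. In the nervous system C1q is made mainly by microglia, the resident macrophages, and complement takes part in the removal of synapses and of dying photoreceptors.

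The level of a probe is log2 of its processed signal minus the 75th percentile of that array over all spots that are not controls, so that a level of 0 is the 75th percentile. A probe counts as detected on an array where the scanner software marked its signal as well above background. Only probes detected throughout the WT arrays, the KO arrays or both entered the test. A probe was called when limma gave a Benjamini-Hochberg adjusted p under 0.05 over all 33972 tested probes and the fold change was over 1.2. By this rule 992 probes (2.92%) were called, 470 (1.38%) higher and 522 (1.54%) lower in KO. Under other scalings the split moved, to 583 higher and 368 lower with the percentile taken over the probes detected on all arrays and to 614 and 346 with cyclic loess. The single Lpcat1 probe read between -0.43 and -0.38 in WT and between -0.92 and -0.78 in KO, a called difference of -0.46 (limma SE 0.04, adjusted p = 0.0036). Where this probe lies relative to the deleted part is not given in the sources used here, so it only shows that the labels and the probe go the same way. The KO arrays kept 0.725 of the WT signal, a small drop for a knockout. All 14 rod marker genes listed, such as Prph2 and Nrl, were tested. Their mean level lay between 7.31 and 7.36 in WT and between 7.08 and 7.15 in KO. The WT arrays occupied one row of the slide and the KO arrays the other, so row and genotype cannot be told apart.

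Of the 9 genes, 5 were called higher in KO (C1qa, C1qb, C1qc, C4b and Serping1) and 0 lower, where 2.2% of all tested genes had a probe called higher and 1.77% a probe called lower. Of their 12 probes 11 were tested, all 11 of them detected on every array, and 6 of the 11 were called higher. In 9 of these 11 probes every KO array read above every WT array, which happened in 6.05% of all tested probes. The median difference over the 8 tested genes was 0.44 on the log2 scale, against -0.04 over all tested probes. By role, 4 of 5 classical genes were called, neither C3 nor Cfb was, and 1 of 2 inhibitors was. The genes were listed with earlier results of these arrays known, so these counts describe them and are no test of the group.

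**Figure D1:**
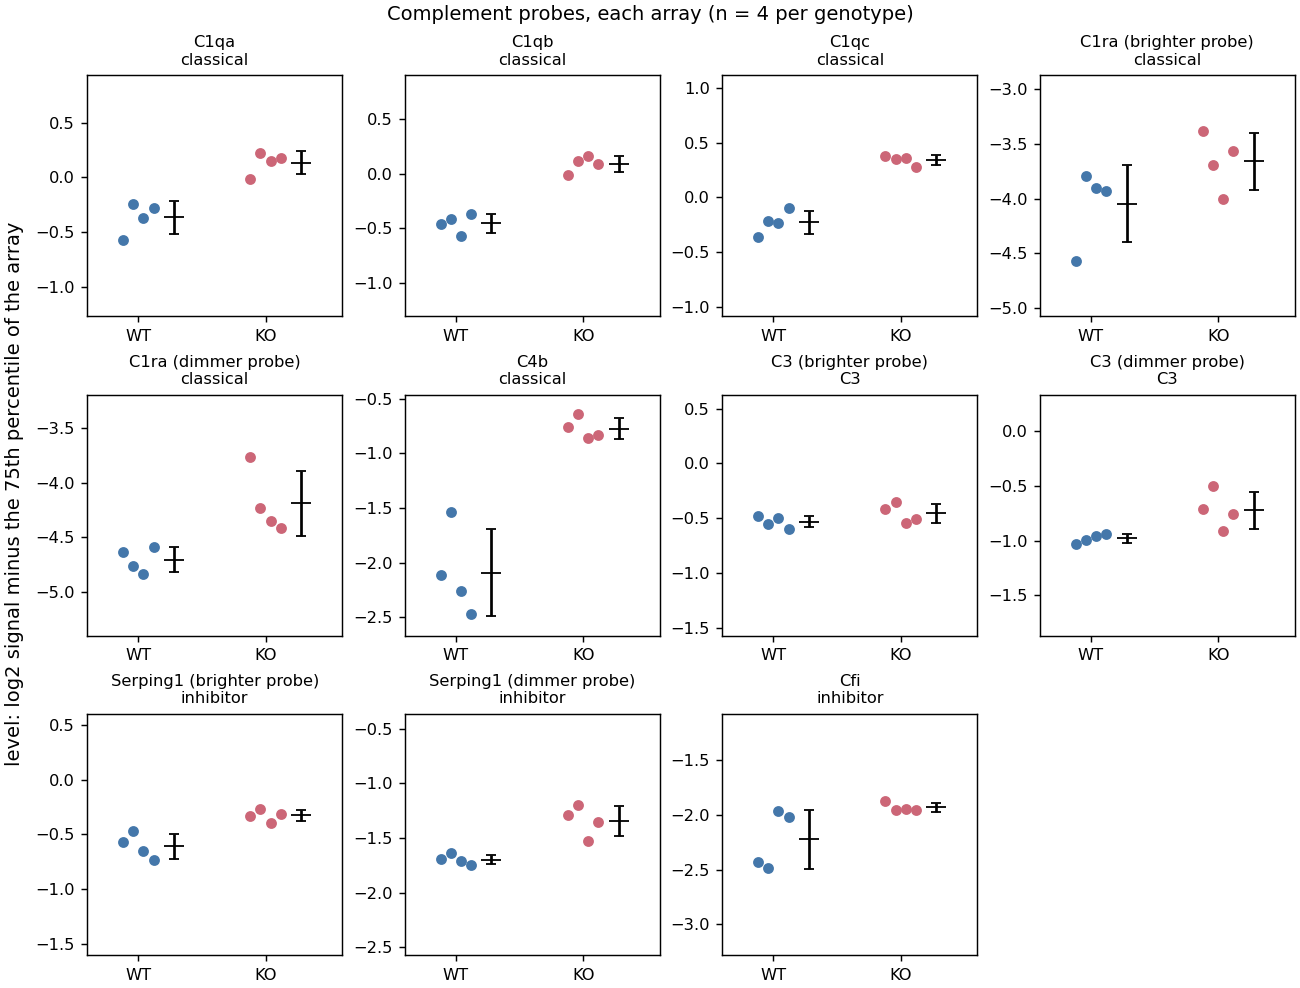
Level (log2 signal minus the 75th percentile of the array, y axis) of each tested complement probe in the 4 WT and the 4 KO arrays (points), with the mean and SD of each genotype (bars), 1 panel per probe, each panel with its own centre. The KO points lie above all WT points in 9 of 11 panels, with the widest gap for C4b (means of -2.09 and -0.77) and overlapping points for the brighter probes of C3 and C1ra.

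The promoters of C1qb, C1qc and C3, from RefSeq, are shown because both C1q subunits were called and neither C3 probe was, which is no test of a difference between them. They are shown 5′ to 3′ on the gene's own strand, as the 250 bases up to the start of the gene in GRCm38.p6. Capitals mark every match to a searched motif. The searched motifs were the PU.1 core GAGGAA, the interferon-stimulated response element (GAAA and GAAA with NN between them), the STAT motif TTCNNNGAA, the C/EBP motif TTNNGCAA, the AP-1 motif TGANTCA and the NF-kB motif (GGGA and CC with NNNN between them), each on both strands.
C1qb (chr4:136886201-136886450, minus strand): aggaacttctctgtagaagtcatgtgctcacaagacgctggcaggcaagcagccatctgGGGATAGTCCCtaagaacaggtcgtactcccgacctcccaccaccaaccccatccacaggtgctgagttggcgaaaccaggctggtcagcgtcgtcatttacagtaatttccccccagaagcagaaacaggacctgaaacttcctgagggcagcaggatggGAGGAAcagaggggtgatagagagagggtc
C1qc (chr4:136892915-136893164, minus strand): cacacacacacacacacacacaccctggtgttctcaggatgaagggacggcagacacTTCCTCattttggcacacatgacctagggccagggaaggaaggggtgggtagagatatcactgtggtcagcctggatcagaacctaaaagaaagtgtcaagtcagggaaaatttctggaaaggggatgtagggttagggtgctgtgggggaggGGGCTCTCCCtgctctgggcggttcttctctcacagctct
C3 (chr17:57228137-57228386, minus strand): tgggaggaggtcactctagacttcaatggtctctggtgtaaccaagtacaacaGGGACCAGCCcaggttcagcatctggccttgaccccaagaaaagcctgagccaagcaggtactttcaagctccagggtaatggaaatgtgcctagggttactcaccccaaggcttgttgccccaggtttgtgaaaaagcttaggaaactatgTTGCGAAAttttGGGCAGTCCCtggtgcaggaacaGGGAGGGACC
The windows of both C1q genes held the PU.1 core, a motif of the macrophage factor PU.1, at 30 to 25 bases before the start of C1qb and at 193 to 188 bases before the start of C1qc, and the window of C3 did not. The core is common, with a match in 23.3% of the 32851 promoters of the table. C3 held the C/EBP motif at 45 to 38 bases before its start, a motif found in 9.56% of promoters. All 3 windows held the NF-kB motif, found in 17.6% of promoters, with 3 matches in C3, 1 in C1qc and 2 overlapping ones in C1qb. None of the 3 held the interferon, STAT or AP-1 motif (2.98%, 7.02% and 6.75% of promoters), and the window of C1ra, the other member matched (4 of 9 in all), held none of the 6. These matches are letters in a window and say nothing of binding.

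The 3 subunits of C1q all rose in KO, by 0.50 to 0.57 on the log2 scale. C1qa, C1qc and C1qb follow one another on chromosome 4 with no other protein-coding gene between neighbours, and the C1q protein needs the products of all of them. C1qc read -0.36, -0.22, -0.23 and -0.10 in WT replicates 1 to 4 and 0.38, 0.35, 0.36 and 0.27 in KO replicates 1 to 4. Every KO array was above 0 and every WT array below it, and the groups were well apart. The difference was 0.57 (limma SE 0.06, 1.48-fold, adjusted p = 0.0048, 95% interval 0.43 to 0.70). C1qb read -0.46, -0.42, -0.57 and -0.37 in WT and -0.01, 0.12, 0.17 and 0.09 in KO. KO replicate 1 was the lowest of its group but still above every WT array. The difference was 0.54 (limma SE 0.06, 1.46-fold, adjusted p = 0.0053, 95% interval 0.41 to 0.67). C1qa read -0.57, -0.24, -0.37 and -0.28 in WT and -0.02, 0.22, 0.15 and 0.17 in KO. WT replicate 1 and KO replicate 1 were the lowest of their groups, and the groups did not overlap. The difference was 0.50 (limma SE 0.08, 1.41-fold, adjusted p = 0.0210, 95% interval 0.31 to 0.69). C1qb and C1qc kept their calls whichever single array was left out (highest adjusted p 0.0265 for each, without WT replicate 2). The call of C1qa was lost in 4 of the 8 fits with 1 array fewer, without WT replicate 3, KO replicate 2, KO replicate 3 or KO replicate 4, with an adjusted p of up to 0.0636. In RNA of a whole tissue, more cells of a type and more RNA per cell cannot be told apart.

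C4b, which encodes the component that is cleaved by active C1, had the largest difference of the 8 tested member genes. It read -2.11, -1.53, -2.26 and -2.46 in WT and -0.76, -0.64, -0.86 and -0.83 in KO, from processed signals of 155, 247, 145 and 128 in WT and of 386, 473, 351 and 380 in KO. WT replicate 2 was the highest of its group, and a wide gap still separated it from the lowest KO array. The difference was 1.32 (limma SE 0.18, 2.49-fold, adjusted p = 0.0112, 95% interval 0.91 to 1.73). The call was kept in all 8 fits with 1 array fewer, with a difference of at least 1.19 and an adjusted p of at most 0.0411 (without KO replicate 2). With the normexp background correction the difference was 1.05 and was still called. C4a, its near-identical paralogue, was matched by no probe through the gene table, and whether the C4b probe also binds C4a RNA was not tested.

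C1ra, which encodes the protease that C1q switches on first, had dim probes and no call. The dimmer of its 2 probes read -4.63, -4.76, -4.83 and -4.59 in WT and -3.76, -4.23, -4.35 and -4.41 in KO. KO replicate 1 stood above the rest of its group, and the groups did not overlap. The difference was 0.52 (limma SE 0.14, adjusted p = 0.0686). It was called with array weights (adjusted p = 0.0376) and without KO replicate 1 (0.37, adjusted p = 0.0413). With the normexp background correction it was 0.15. The brighter probe read -4.57, -3.79, -3.90 and -3.93 in WT and -3.38, -3.69, -4.00 and -3.56 in KO. The groups overlapped, with a difference of 0.39 (limma SE 0.19, adjusted p = 0.263, 95% interval -0.05 to 0.82). It was 0.21 without WT replicate 1, the lowest array, and 0.17 with the normexp correction. C1s1, which encodes the partner protease and lies beside C1ra on chromosome 6, had a difference of -0.08 (limma SE 0.09, adjusted p = 0.620). Both C1ra and C1s1 have close paralogues there, C1rb and C1s2. By limma C1rb had a difference of -0.05 (adjusted p = 0.781) and C1s2, by its tested probe, of 0.08 (adjusted p = 0.656). Whether a probe also reads RNA of a paralogue was not tested.

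C3, on which all routes of the cascade converge, was not called by either of its 2 probes. The brighter probe read -0.48, -0.55, -0.49 and -0.60 in WT and -0.42, -0.35, -0.54 and -0.51 in KO. The groups overlapped. The difference was 0.08 (limma SE 0.05, adjusted p = 0.428), with a 95% interval of -0.05 to 0.20 that lay below the lower bounds of the 3 C1q subunits and of C4b. It was 0.04 both without KO replicate 2 and with the normexp correction. The dimmer probe read -1.03, -0.998, -0.96 and -0.94 in WT and -0.72, -0.50, -0.91 and -0.75 in KO. Here the groups did not overlap, although KO replicate 3 came close to the WT arrays. The difference was 0.26 (limma SE 0.08, adjusted p = 0.0990, 95% interval 0.07 to 0.44), an interval that overlaps those of the C1q subunits, and it was not called in any of the 13 alternative fits or the 8 fits with 1 array fewer. With the trended, robust form of limma its adjusted p was 0.0443, and the fold stayed under the limit. The 2 probes thus gave different sizes for one gene, and which of its transcripts each probe reads is not given in the sources used here.

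Factor B, the protease of the alternative pathway, was not measurable. The Cfb probe was detected in 1 WT and 1 KO sample, with processed signals of 4.66, 5.34, 5.06 and 28.4 in WT and of 5.18, 7.52, 40.2 and 22.9 in KO. It was therefore not tested and has no fold change. C2, its neighbour on chromosome 17 and its counterpart in the classical pathway, was measurable, with a difference of 0.18 (limma SE 0.08, adjusted p = 0.229). Of the rest of the alternative pathway, Cfp, which encodes properdin, had a difference of 0.06 (adjusted p = 0.583), and Cfd was not tested.

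Of the inhibitors, Serping1 rose and Cfi was not called. Serping1 encodes the C1 inhibitor, which inactivates C1r and C1s. Its brighter probe read -0.57, -0.47, -0.66 and -0.74 in WT and -0.33, -0.26, -0.40 and -0.31 in KO. The groups did not overlap. The difference was 0.28 (limma SE 0.06, 1.22-fold, adjusted p = 0.0420). Its dimmer probe read -1.69, -1.64, -1.71 and -1.74 in WT and -1.29, -1.20, -1.52 and -1.36 in KO. These groups did not overlap either, and the difference was 0.36 (limma SE 0.07, 1.28-fold, adjusted p = 0.0304). Both calls lay close to the limit. Of 13 alternative fits the brighter probe was called in 7 and the dimmer probe in 11. With the replicate number as a block neither was called (limma adjusted p = 0.0626 and 0.0570). With 1 array fewer the brighter probe was called in 0 of 8 fits, and its adjusted p reached 0.108 when KO replicate 2 was left out. The dimmer probe was called in 1 of 8, the fit that left out KO replicate 3, and its adjusted p reached 0.0807 when WT replicate 3 was left out.

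**Figure D2:**
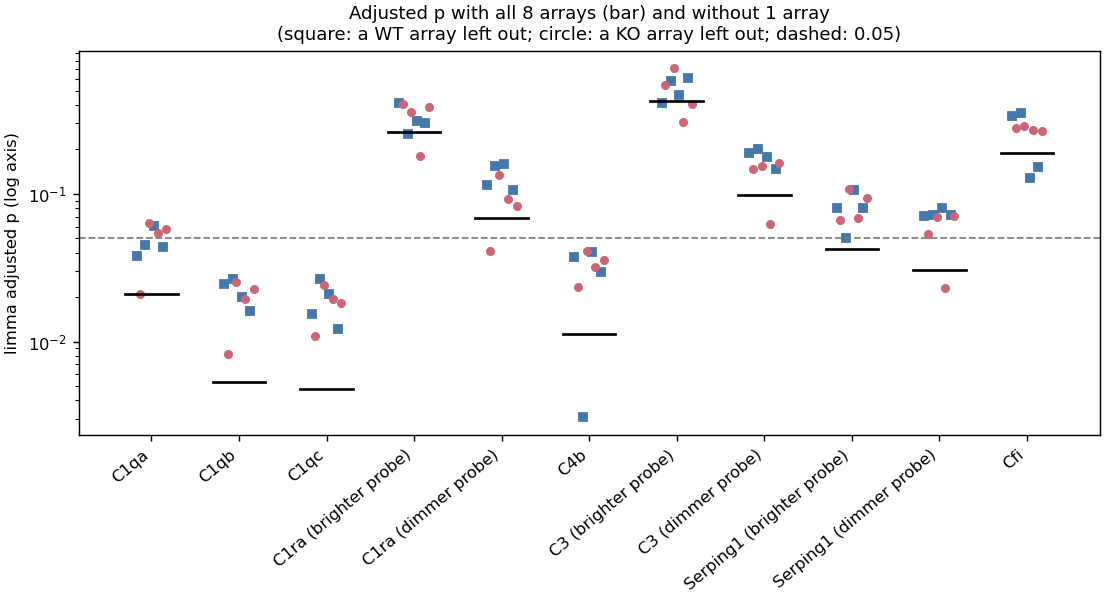
Adjusted p of limma (y axis, log scale) for each tested member probe with all 8 arrays (bar) and with each single array left out (squares for a WT array, circles for a KO array), and the limit of 0.05 (dashed line). All marks of C1qb, C1qc and C4b lie under the limit, those of C1qa straddle it (up to 0.0636), and those of Serping1 lie above it in 8 of 8 and 7 of 8 cases.

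Cfi encodes factor I, the protease that degrades the active fragments of C3 and C4. Its probe read -2.43, -2.48, -1.96 and -2.02 in WT and -1.87, -1.96, -1.94 and -1.96 in KO. The WT arrays fell into a lower and an upper pair, and the upper pair nearly touched the KO arrays. The difference was 0.29 (limma SE 0.12, adjusted p = 0.190, 95% interval 0.01 to 0.57).

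**Figure D3:**
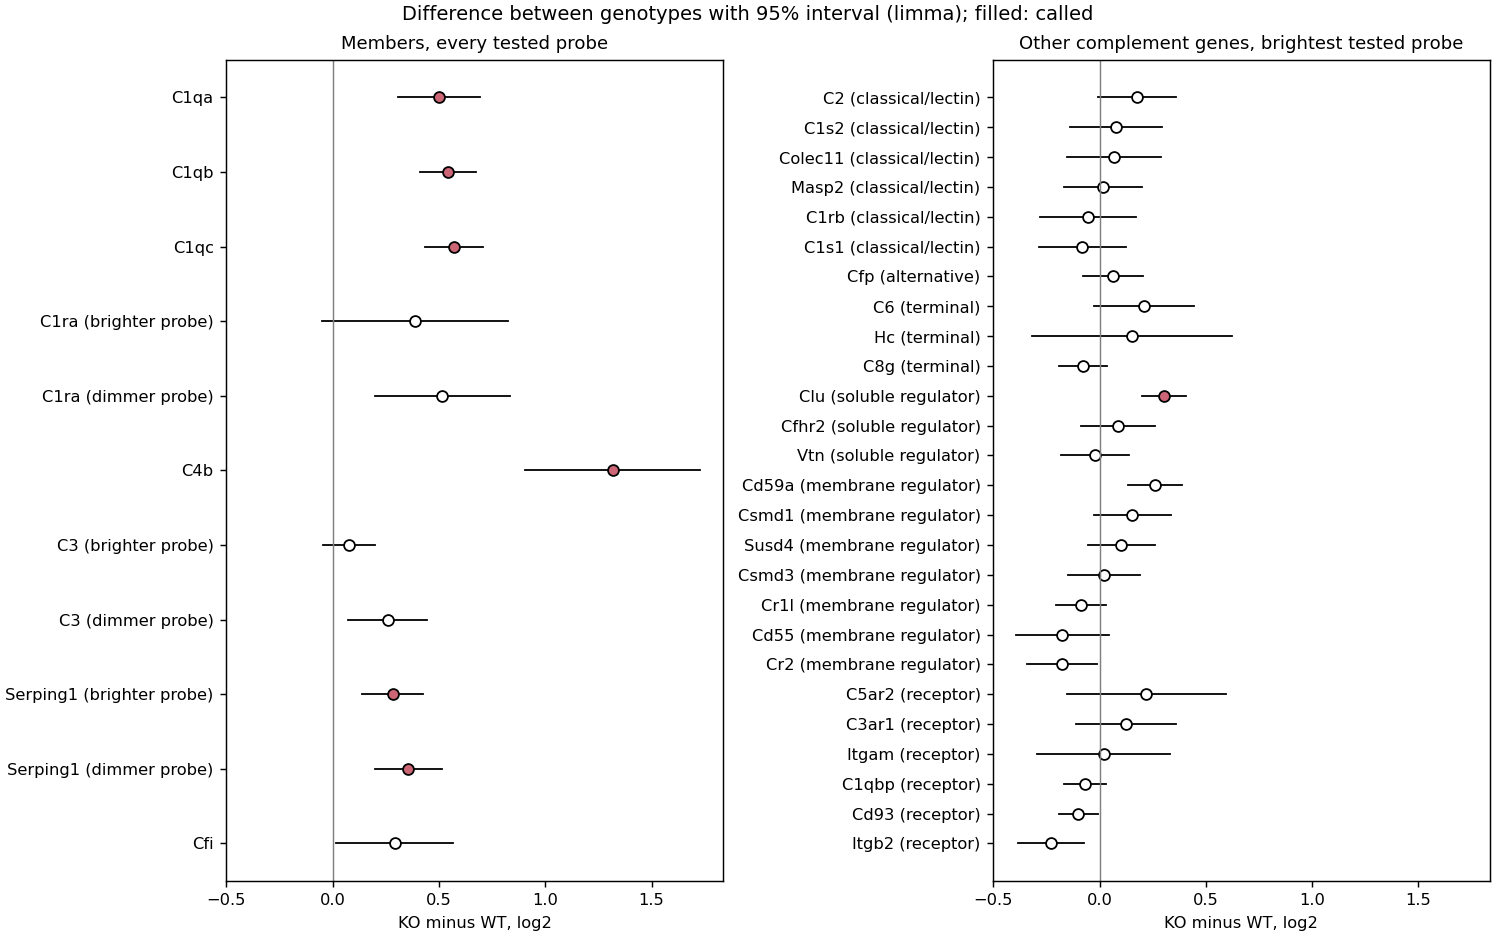
Difference between genotypes (KO minus WT, log2, x axis) with its 95% interval from limma for every tested probe of the members (left) and for the brightest tested probe of other complement genes (right), with called probes filled. C4b (1.32) and the C1q subunits (0.50 to 0.57) lie to the right of the brighter C3 probe (0.08), and Clu (0.30) is the only filled point on the right.

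To test whether members differed in their change, the brightest probe of one gene was subtracted from that of another within each array, for all 28 pairs of the 8 tested genes. In 11 pairs these within-array differences did not overlap between genotypes. The share among pairs of other genes was not computed. Of single tested probes 17.5% did not overlap, in either direction. C4b against each of the other 7 genes made up 7 of them, with a change that was larger by 0.75 (against C1qc) to 1.24 (against C3). The change of C3 was smaller than that of C1qc by 0.49, of C1qb by 0.47, of C1qa by 0.42 and of Serping1 by 0.21. All 11 had the smallest p that 4 against 4 arrays allow, an exact two-sided permutation p of 0.0286, which is 0.0727 after adjustment over the 28 pairs, so no pair passed an adjusted limit of 0.05. The brighter C3 probe entered these pairs, and its dimmer probe, which had the larger difference, did not. Among the C1q subunits the changes differed by 0.03 to 0.07 and their arrays overlapped, with an exact permutation p of 0.514 or more. The C1q subunits and Serping1 overlapped as well, with differences in change of 0.22 to 0.29 (exact permutation p from 0.0571 to 0.0857).

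Of 51 other complement genes listed, 48 were on the array, 27 were tested, 1 was called higher and 0 lower, a share near that of all tested genes (2.2% and 1.77%). By the brightest tested probe of each gene, the KO arrays read above all WT arrays in 3 genes and below them in 2. Of all tested probes, which is not a share of genes, this happened in 6.05% and 11.4%. Their median difference was 0.06 on the log2 scale, with 17 of 27 above 0 and a range from -0.23 to 0.30, and 15 were detected on no array. The called gene was Clu, which encodes clusterin, a soluble inhibitor of the terminal complex. It read 6.68, 6.73, 6.84 and 6.69 in WT and 7.01, 7.06, 7.01 and 7.07 in KO. The groups did not overlap, and the difference was 0.30 (limma SE 0.05, adjusted p = 0.015). The call was lost without WT replicate 2 (adjusted p = 0.0531). It was also lost with the replicate number as a block (adjusted p = 0.0571) and with no filter on dim probes (adjusted p = 0.0591).

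By role, 0 of 6 tested genes of the classical and lectin pathways were called (median difference 0.04), and 0 of 3 terminal components (0.15). Among soluble regulators 1 of 4 was called (median 0.14), among membrane regulators 0 of 7 (0.02) and among receptors 0 of 6 (-0.03). Cd59a, which encodes a membrane inhibitor of the terminal complex and is named here after its values were seen, passed the adjusted p of limma (0.037) but not the fold limit, with a difference of 0.26. The receptor for the C3 fragment C3a, C3ar1, had a difference of 0.12 (limma SE 0.10, adjusted p = 0.506), and C5ar1, the receptor for C5a, was detected on no array.

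Microglia are the main source of C1q in the nervous system, so their markers were set beside it. Of 18 microglia markers on the array, 17 were tested and 4 were called higher in KO, namely Tyrobp (0.65), Trem2 (0.49), Aif1 (0.45) and Ctss (0.34), which are named after their values were seen. Of all tested genes 2.2% had a probe called higher. The difference was above 0 in 16 of 17 markers and in 38.0% of all tested probes, and the median of the markers was 0.26. Among the markers with the highest levels were Siglech (0.29, adjusted p = 0.198), Csf1r (0.19, adjusted p = 0.025, under the fold limit) and Ctss. Sall1, a nuclear factor of microglia, was detected on no array. The mean level of the 17 markers lay between -0.64 and -0.54 in WT and between -0.34 and -0.29 in KO, a difference of 0.28. The mean of the 3 C1q subunits lay between -0.46 and -0.25 in WT and between 0.12 and 0.23 in KO, a difference of 0.54. Set against the marker mean within each array, the C1q mean was higher by 0.14 to 0.29 in WT and by 0.40 to 0.54 in KO, so the difference that remained was 0.26 and the groups did not overlap. Single markers had differences from -0.07 to 0.65, so what remains depends on which markers are averaged. The part of the microglia markers in the C1q result was not tested.

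**Figure D4:**
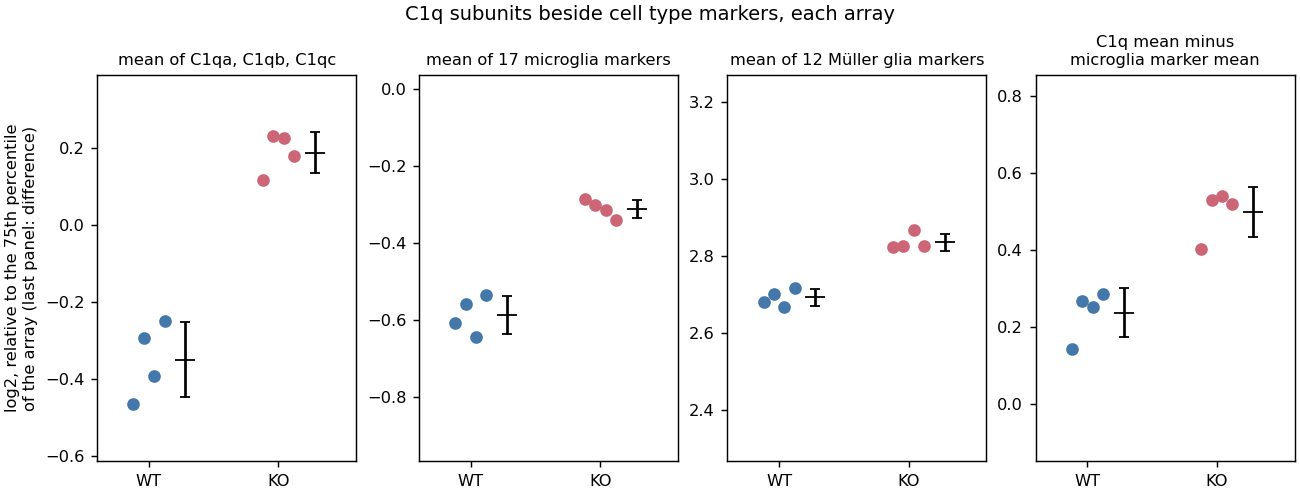
Mean level of the 3 C1q subunits, of 17 microglia markers and of 12 Müller glia markers, and the C1q mean minus the microglia mean (log2, y axes of equal span), in each of 4 WT and 4 KO arrays (points) with the mean and SD of each genotype (bars). The genotypes are apart in all 4 panels, with differences of 0.54, 0.28, 0.14 and 0.26.

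Markers of other cell types were examined in the same way. Of all tested genes 2.2% had a probe called higher and 1.77% a probe called lower. Overlap was read from the brightest tested probe of a gene, and the shares beside it are of probes. Of 12 markers of Müller glia, the radial glia of the retina, 2 were called higher (Apoe at 0.29 and, named after its value was seen, Kcnj10 at 0.31). In 7 of the 12 every KO array read above every WT array (6.05% of all tested probes). Their median difference was 0.15, with a mean level between 2.67 and 2.72 in WT and between 2.82 and 2.87 in KO. Of 5 astrocyte markers 0 were called, and their mean level lay between 0.13 and 0.30 in WT and between 0.40 and 0.49 in KO. Gfap was among them (0.51, limma adjusted p = 0.174, and 0.52, adjusted p = 0.084, by another tested probe). Of 14 rod markers 5 were called lower, with a median of -0.22. In 12 of the 14 every KO array read below every WT array (11.4% of all tested probes). Of 8 other macrophage and monocyte markers only 3 were tested and 0 called, with a median of 0.25 and 2 of 3 without overlap and higher in KO (6.05% of all tested probes). These were Lyve1 (0.25, adjusted p = 0.034, under the fold limit) and Cd44 (0.33, adjusted p = 0.058, and -0.13 by another probe), while Ccr2, Ms4a7, Mrc1 and Cd163, named for this reason after their values were seen, were detected on no array. F13a1 was detected on 3 WT arrays and 0 KO arrays and was not tested. Of 4 tested blood markers and 7 tested markers of the retinal pigment epithelium 0 were called. Of 8 endothelial markers 1 was called higher (Flt1 at 0.31), although 6 of 8 had differences at or below 0, with a median of -0.08, and in 2 of them every KO array read below every WT array, as in 11.4% of all tested probes. The part of these markers in the levels of C4b, Serping1 and Clu was not tested.

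The genes of glial stress and of the interferon response, which are the programmes that complement genes often accompany, also held called members. Of 14 tested acute-phase and reactive glia genes 6 were called higher and 0 lower (median 0.34), and of 14 tested interferon-stimulated genes 3 were called higher and 0 lower (median 0.52), against 2.2% and 1.77% of all tested genes. At the highest levels of the first list stood Vim (0.03, adjusted p = 0.726), Cp (0.26, adjusted p = 0.037, under the fold limit), Stat3 (0.38, called) and Cebpd (0.90, called). At the highest levels of the second stood Stat2 (0.08, adjusted p = 0.281), Irf9 (0.30, adjusted p = 0.106), Isg15 (0.49, adjusted p = 0.153) and Oasl2 (0.48, adjusted p = 0.253), none of them called. The called interferon genes, Ifit3 (1.02), Gbp2 (0.68) and Irf7 (0.58), are named after their values were seen.

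Likeness in pattern was measured as the root mean square difference between the levels of 2 genes over the 8 arrays, each centred on its own mean, over 14929 genes with a symbol. Closest to the C1q mean were Efemp1 (0.05), Cacna1s (0.06), Spag5 (0.07), Tyrobp (0.07) and Ly86 (0.07), so that 1 microglia marker of the list was among the 5. Closest to C4b, at larger distances, were Poteg (0.23), Nr4a1 (0.25), Fos (0.25), Ccl6 (0.28) and Csrnp1 (0.29). Closest to the brighter C3 probe were Fmn1, Ina, Socs2, Dhh and Etfbkmt, at 0.03 each. The C1q mean itself varied over the arrays with an SD of 0.30, C4b with 0.75 and C3 with 0.08, and the genes near C3 had differences of 0.03 to 0.08.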

How the data were processed

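Whole-retina total RNA of 4 Lpcat1 WT and 4 Lpcat1 KO samples from mice aged 2 weeks, grouped by their labels, was labelled with Cy3 and put on 1-colour Agilent SurePrint G3 mouse arrays, 1 per sample. The authors read the scans with Agilent Feature Extraction 10.7.1.1. Each of their deposited files lists a background-subtracted linear intensity for 62976 spots, not yet scaled between arrays. A further deposited table holds log2 values that the authors obtained by a 75 percentile shift in GeneSpring. It served as an alternative, and on each array it was offset from the levels used here by a constant of 0.12 to 0.15. Every sample column of the authors' log2 values was used (0 left out).

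The processed signal was put on a log2 scale and shifted by the 75th percentile of its array, taken over the 59305 spots that are not controls. Left out were the spots marked as outliers (86 to 147 per array). Repeated spots of a probe were averaged. No spot was saturated (0 spots), and 33113 to 36373 probes per array were detected, that is, marked as well above background. Detection on 4 of 4 arrays of WT, of KO or of both was required for a test, which 33972 of 55681 probes met. Accessions named 26413 probes (47.4%) through a RefSeq gene table of GRCm38.p6. The array was designed on mm9, so no coordinates of probes were used. For several probes of a gene the one with the highest mean level is its value in counts and medians.

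The comparison of KO with WT used limma 3.58.1 (lmFit, eBayes) under R 4.3.3 with p-values adjusted by Benjamini-Hochberg over every probe tested, and the script was tested on simulated data. A gene was called when at least 1 of its probes was. For pairs of members an exact permutation test, two-sided, was used, for which 4 against 4 arrays allow no p under 0.0286. The alternatives were other scalings, background corrections, filters, thresholds and tests, a replicate block and leaving out each array. Mean spot signals were not used here, so normexp with an offset of 50 ran on median signals. The number of arrays limits the precision. The promoters of 32851 RefSeq transcripts were searched for motifs over the 250 bases before the start.

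Named are all members, Lpcat1, called genes among the other complement genes and those that bear on a member, up to 4 genes of each marker list by level, and the 5 genes most like C1q, C4b or C3. Any other gene named was chosen after its values were seen, and a few genes that the rule names are not reported here. The members and the gene lists were chosen with earlier results of these data known.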

Additional observations from a re-analysis of the deposited data

Results flagged for a closer look

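Among the 26 groups of 4 arrays examined (11 member probes, Lpcat1 and Clu, in each genotype), 1 held an array that stood apart by Dixon's test, where chance gives about 1 in 20. KO replicate 1 read -1.867 for Cfi, and the gap to its nearest neighbour took up 0.833 of the range of the KO group, over Dixon's 95% critical value for 4 samples. The KO group of Cfi spans a narrow range, from -1.96 to -1.87. This array lies above the other 3 by less than the lower and the upper pair of WT arrays lie apart. The cause was not tested.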

How the results depend on the processing

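All 11 tested member probes had a positive difference in the 7 alternatives that change the values or weights of every probe and in the 8 fits with 1 array left out. The other alternatives leave a difference as it is, except that keeping outlier spots moved 1 probe. With no filter on dim probes 246 probes, 3 member genes (C1qb, C1qc and C4b) and 0 other complement genes were called, against 992, 5 and 1. At a fold over 1.5 these counts were 138, 1 (C4b) and 0, and with no fold limit 1869 probes and 2 other complement genes were called. Clu and Cd59a were also both called, 2 genes, under quantile normalization, the percentile over detected probes, cyclic loess, the authors' values and array weights. With the replicate number as a block 395 probes, 4 member genes (without Serping1) and 0 other complement genes were called. The correlations of same-numbered arrays were 0.25, 0.07, 0.04 and 0.11 for replicates 1 to 4. The highest correlations of the same WT arrays with a KO array of another number were 0.008, 0.06, 0.05 and 0.02. Replicates 1, 2 and 4 thus correlated best with their own number, and replicate 3 slightly better with another. Whether the numbers pair the samples is not given in the sources used here. Leaving out 1 array gave counts of called probes from 391 (WT replicate 2 left out) to 1182 (KO replicate 1 left out), 3 to 5 member genes, 0 to 2 other complement genes and 11 to 14 pairs of members without overlap. The count of 3 member genes arose without WT replicate 3, KO replicate 2 or KO replicate 4, and that of 0 others without WT replicate 2. Under other scalings the median of all tested probes stayed within 0.1 of 0. The causes of these shifts were not tested. Dim probes such as C1ra and Cfb, and 4 arrays per genotype on 1 slide, limit what can be read from single genes.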
